A study of Mus musculus with 12 samples.

Results

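The neuron, oligodendrocyte and astrocyte marker genes are 30 genes of brain cells that carry no CD11b, read here in cells taken from mouse brain with magnetic beads against CD11b, a surface protein of microglia and macrophages. They were chosen by symbol as general markers of their cell types, with earlier results of these data known. They comprise 10 genes of neurons, 7 of mature oligodendrocytes, 4 of the oligodendrocyte lineage and its precursors, and 9 of astrocytes. All 30 were among the 36491 genes of the deposited count table, and all 30 were among the 18875 genes that passed the filter on low counts. The lowest count of any of them in any library was 22, for Aqp4. RNA-seq was done on 12 libraries from wild-type C57BL/6J male mice, with a stated age of 6 months. Every mouse had received a bone marrow transplant, then PLX5622, an inhibitor of the CSF1 receptor on which microglia depend, in the food for 2 weeks, then standard chow. After 6 weeks on chow, 50 µg of bacterial lipopolysaccharide (LPS) or saline was injected into the abdomen, and cells were taken 6 h later. The 4 groups of 3 libraries were head-shielded with LPS, head-shielded without LPS, unshielded with LPS and unshielded without LPS, where the shield covered the head at the transplant. All groups therefore shared the transplant and PLX5622, and no group without them was analysed here. Whether the 3 libraries of a group came from separate animals is not given in the sources used here, so p-values measure the spread between libraries, which may be technical.

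Neurons signal through transmitter release, oligodendrocytes wrap axons in myelin, and astrocytes take up glutamate, buffer ions and water and surround vessels. Microglia and macrophages make few of the transcripts that define these cells, so in a CD11b sort such transcripts can come from cells, debris or free RNA carried through the separation. Astrocytes also respond to inflammation by raising a set of reactive genes, of which Gfap is the best known. In bulk RNA, fewer cells of a type and less RNA per cell cannot be told apart.

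Shielded libraries 2 and 3 without LPS were titled as not given LPS, but LPS stands in their treatment field. Groups were formed by title. Srgn, a proteoglycan gene chosen for this check after its values were seen, was at 182 and 172 CPM (counts per 1e6 counts) in these libraries, at 190.3 in shielded library 1 without LPS, and at 1594 to 1996 in the 3 shielded LPS libraries. Counts of called genes that rest on these libraries are given with and without them. Shares and levels are given per library, and without these libraries shielded library 1 alone stands for the group. Each library held between 18090977 and 60495968 counts, most of all in unshielded mice given LPS. A list of 10 microglia genes, the defining markers of the labelled cell type, took between 1.62 and 3.68% of the counts of each library.

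**Figure D1:**
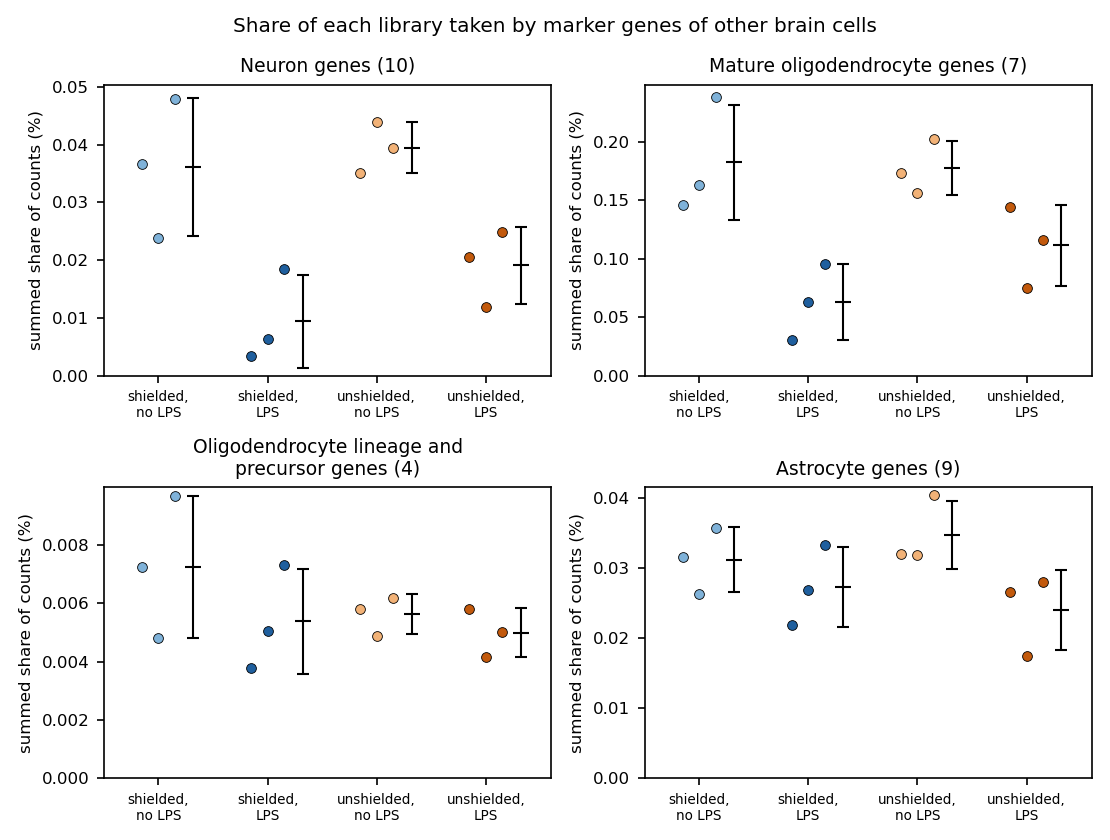
Summed share of each library's counts (%, vertical axis) of the genes of each cell type, by group (horizontal axis). Points are libraries 1 to 3 from left to right, and bars are the mean ± SD of 3. The neuron and mature oligodendrocyte shares were lower in the shielded LPS libraries than in either group without LPS, while the astrocyte shares overlapped between shielded groups.

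The 30 genes together took a small share of every library, and that share was lower after LPS. It was 0.0592, 0.101 and 0.155% of counts in shielded mice given LPS, against 0.222, 0.218 and 0.332% in shielded mice without LPS. In unshielded mice it was 0.197, 0.109 and 0.174% with LPS and 0.247, 0.237 and 0.288% without. Libraries with and without LPS did not overlap under either head treatment. The means were 0.105 ± 0.0479% (SD, n = 3) and 0.257 ± 0.0647% in shielded mice, and 0.160 ± 0.0459% and 0.257 ± 0.0273% in unshielded mice, so the 2 groups without LPS had nearly the same mean.

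In shielded mice the summed shares of unscaled counts did not move alike between cell types. In unshielded mice neuron, mature oligodendrocyte and astrocyte shares were each lower in every LPS library than in any library without LPS. With the TMM scaling used for CPM and the tests, only the neuron shares of these 3 stayed apart in unshielded mice. Mature oligodendrocyte shares then overlapped (0.149% in LPS library 1, 0.136% in library 2 without LPS). Astrocyte shares did so too (0.0298% in LPS library 3, 0.0278% in library 2 without LPS). The shares that follow are of unscaled counts unless TMM is named. Neuron genes took 0.00333, 0.00637 and 0.0185% of counts in shielded mice given LPS, against 0.0366, 0.0239 and 0.0479% of the shielded libraries without LPS. In unshielded mice the neuron share was 0.0206, 0.0119 and 0.0249% with LPS and 0.0351, 0.0440 and 0.0394% without. The neuron shares with and without LPS did not overlap in either case. Mature oligodendrocyte genes held most of the total, with a mean of 0.183 ± 0.0492% (SD, n = 3) in shielded mice without LPS and 0.0630 ± 0.0327% with it, and 0.177 ± 0.0232% and 0.112 ± 0.0347% in unshielded mice. Mbp alone made up more of this than the other 6 genes together: without it, the mean in shielded mice without LPS was 0.0768%. The astrocyte share was 0.0219, 0.0269 and 0.0333% in shielded LPS libraries and 0.0317, 0.0264 and 0.0357% in shielded libraries without LPS, and these overlapped. The direction of the shielded means depended on the scaling. They were 0.0274% with LPS and 0.0313% without it unscaled, and 0.0313% and 0.0282% with TMM. In unshielded mice the unscaled astrocyte share was 0.0266, 0.0175 and 0.0281% with LPS and 0.0321, 0.0319 and 0.0404% without, and these did not overlap. Without Slc1a3, the astrocyte gene with the most counts, the astrocyte mean was 0.00820% in shielded LPS libraries and 0.0166% in shielded libraries without LPS.

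Libraries of a group differed from one another in a way most of the 30 genes shared. In the shielded LPS group, library 1 had the lowest CPM for 29 of the 30 genes and library 3 the highest for 29. Among unshielded LPS libraries, library 2 was lowest for 29 genes, and among shielded libraries without LPS, library 2 was lowest for 27. The unshielded libraries without LPS showed no such common order: library 2 was lowest for all 7 mature oligodendrocyte genes and 8 of the 9 astrocyte genes, and highest for 8 of the 10 neuron genes. The ratio of the highest to the lowest library in the shielded LPS group had a median of 5.09 over neuron genes, 3.45 over mature oligodendrocyte genes and 3.04 over astrocyte genes. In the unshielded group without LPS these medians were 1.23, 1.26 and 1.40. 

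Per kilobase of exon, Mbp, the gene of myelin basic protein, had the highest level of the 30, at 112.5 ± 22.6 CPM per kb (SD, n = 3) in shielded mice without LPS. Its gene also makes transcripts outside myelin, including in blood cells, and counts per gene do not separate them. Mobp and Cnp, both of myelin, followed at 46.0 ± 9.68 and 42.6 ± 8.66 CPM per kb in that group, which differ by less than their spread. Mag, Cldn11 and Olig1 came next at 35.2, 24.8 and 16.0. Among astrocyte genes Slc1a3 was highest at 15.5 ± 0.582 and Aldoc second at 10.8 ± 3.15. The highest neuron gene, Snap25, was at 10.1 ± 2.71. Aqp4, at 0.797, and Pdgfra, at 0.954, were lowest, close to Cspg4 at 0.973.

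LPS in head-shielded mice lowered most of these genes. By edgeR's quasi-likelihood test with Benjamini-Hochberg adjustment over all 18875 genes, 23 of the 30 were lower and 3 were higher, where 35.1% of all genes tested were called lower and 32.4% higher. Without the 2 libraries whose treatment field conflicts, 12 of the 30 were called, where 3845 of the 20198 genes tested in that fit were lower and 4524 higher. The higher genes were then Cspg4 and Slc1a3, and the lower ones were Rbfox3, Slc17a7, Stmn2, Syp, Cnp, Ermn, Olig2, Pdgfra, Slc1a2 and Aldoc. The median log2 fold change over the 30 was −1.33, beside −0.14 over all genes tested. With library totals as the scaling, these medians were −1.66 and −0.49, so the difference between the members and all genes was about the same (−1.19 and −1.17), while the share of higher genes among all those called went from 48.0 to 30.7%. In 18 of the 30 genes every shielded LPS library lay below every shielded library without LPS, as in 35.7% of all genes tested.

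Of the 10 neuron genes, 9 fell after LPS in shielded mice. Most of these calls were lost without the conflicting libraries, where the median log2 fold change of the 10 was −1.64, beside −1.62 with all libraries. Snap25, which encodes a protein of the synaptic vesicle fusion machinery, was at 10.1, 15.9 and 44.4 CPM in shielded LPS libraries and at 73.2, 48.7 and 84.7 CPM without LPS. The groups did not overlap, and library 3 of the LPS group was close to library 2 of the other. Snap25 fell by 1.55 ± 0.45 (SE) on the log2 scale (adjusted p = 0.0108). The widest drop was that of Slc17a7, the vesicular glutamate transporter of excitatory neurons, with a log2 fold change of −2.18 ± 0.53 (adjusted p = 0.00421). Gad1, which makes the inhibitory transmitter GABA, changed by −1.81 ± 0.66 (adjusted p = 0.0304), so genes of both excitatory and inhibitory neurons were among those that fell. The other called genes were Syt1 (calcium sensor of release), Rbfox3 (the neuronal nuclear antigen NeuN), Tubb3 and Map2 (neuronal cytoskeleton), Stmn2 (growth of neurites) and Syp (synaptic vesicle protein), between −1.78 and −1.35. Nefl, the light neurofilament, was at −1.01 ± 0.44 with an adjusted p of 0.0608. It shares 32.8% of its exon length with Nefm on the other strand and Syp shares 16.8% with Gm14703, and the strand setting of the counting is not given, so their counts can hold reads of these neighbours. All 20 other neuron genes tested were lower, among them Vamp2, of the vesicle fusion machinery, at −0.43 ± 0.08, and the median of the 20 was −1.68. Of the 20, 9 were called lower without the conflicting libraries.

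All 7 mature oligodendrocyte genes fell in shielded mice. In each, every LPS library lay below every library without LPS, as in 35.7% of all genes tested. Most of the 7 calls were lost without the conflicting libraries, which leaves 1 shielded library without LPS. The median log2 fold change of the 7 was −1.22 in that fit and −1.31 with all libraries. Mbp was at 195, 445 and 583 CPM with LPS and at 781, 918 and 1159.6 CPM without, a log2 fold change of −1.22 ± 0.33 (adjusted p = 0.00745). Cnp, a phosphodiesterase of myelin, was at 54.8, 56.9 and 76.0 CPM with LPS and at 145.9, 128.8 and 189.9 CPM without. Cnp had the smallest adjusted p of the 7, 0.000144, with a log2 fold change of −1.31 ± 0.20. Its ratio of highest to lowest among shielded LPS libraries was 1.39 and that of Mag 1.60, where the median of the 7 was 3.45. Which cells the Cnp counts came from was not tested. Mog, a protein of the outer myelin surface, changed most, by −2.33 ± 0.56, followed by Ermn, of the oligodendrocyte cytoskeleton, at −2.06 ± 0.40. Mag (axon contact), Mobp (compact myelin) and Cldn11 (tight junctions of myelin) lay between −1.84 and −1.05. Of 14 other mature oligodendrocyte genes, 12 were lower and none higher, with Aspa at −2.86 ± 0.49 and Opalin at −3.17 ± 0.55. Without the conflicting libraries 6 of the 14 were called lower. 

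In the oligodendrocyte lineage the transcription factors Olig1 and Olig2 fell, by 1.84 ± 0.51 and 2.02 ± 0.41 on the log2 scale (adjusted p = 0.00838 and 0.00113). Pdgfra, the growth factor receptor of precursors, also fell, by 1.29 ± 0.36 (adjusted p = 0.00729). Cspg4, which encodes the NG2 proteoglycan of precursors and pericytes, went the other way. It was at 40.2, 44.1 and 51.4 CPM in shielded LPS libraries and at 12.1, 10.5 and 12.2 CPM without LPS. The groups were far apart, and the spread of Cspg4 among LPS libraries was small, with a ratio of highest to lowest of 1.28. The log2 fold change was 1.96 ± 0.17 (adjusted p = 7.37e-07) and 1.90 without the 2 conflicting libraries (adjusted p = 0.000373). Of 9 other precursor genes 8 were lower, led by Gpr17 at −2.58 ± 0.30 and Sox10 at −2.56 ± 0.38, and 1 was higher, Vcan, a matrix proteoglycan, at 1.48 ± 0.25. Without the conflicting libraries 7 were lower and 1 higher. Of 8 pericyte and smooth muscle genes none was higher and 4 were lower (2 without the conflicting libraries), and their summed share was 0.00422 to 0.00582% with LPS and 0.00805 to 0.0116% without. The part of pericytes, of precursors and of the sorted cells themselves in the levels of Cspg4 and Vcan was not tested.

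**Figure D2:**
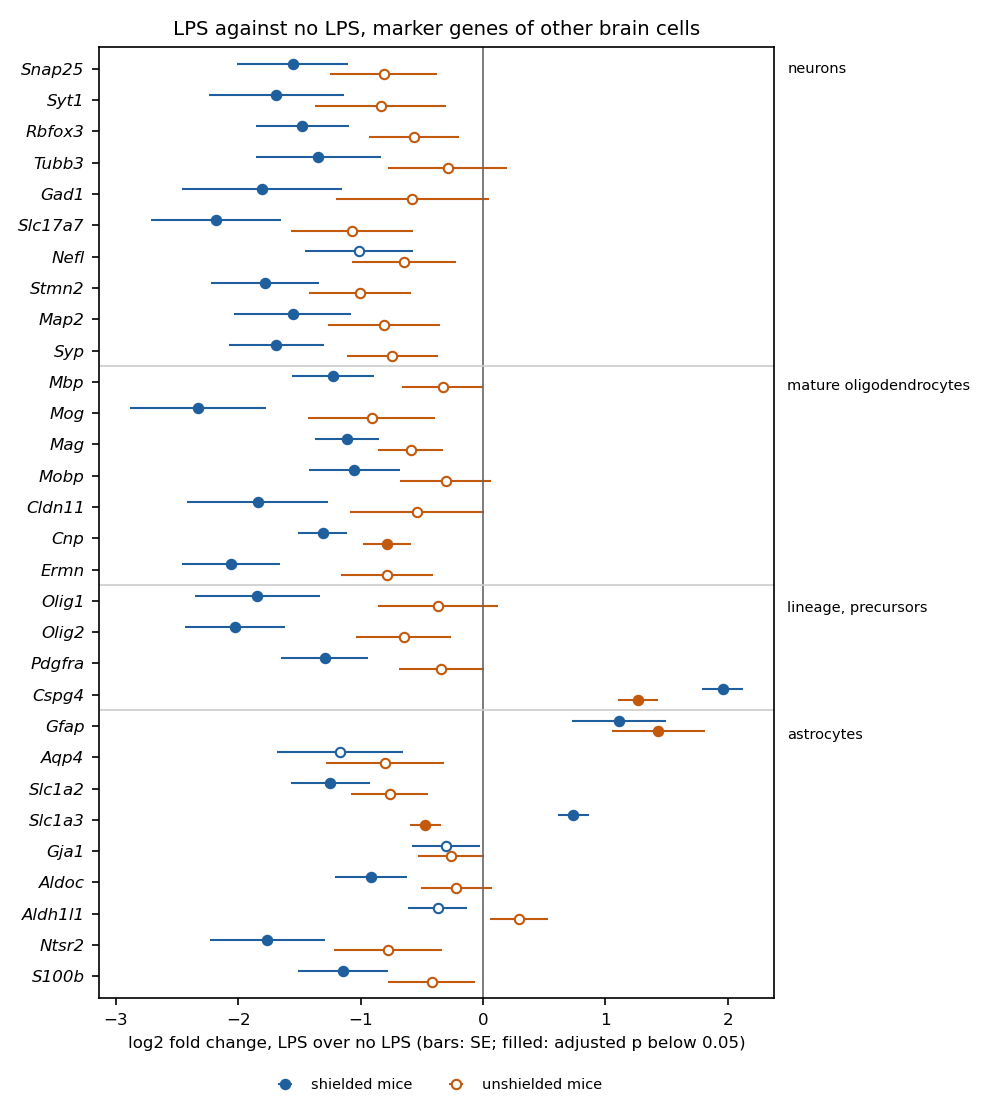
Log2 fold change of LPS over no LPS (horizontal axis) for each of the 30 genes (vertical axis), in shielded (blue) and unshielded (orange) mice, with SE bars. Filled points passed an adjusted p of 0.05. Cspg4 and Gfap lie to the right of 0 in both, and Slc1a3 lies on opposite sides.

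The 9 astrocyte genes were divided: 4 fell, 2 rose and 3 did not pass the test in shielded mice. Some of these calls were lost without the conflicting libraries, where the median log2 fold change of the 9 was −1.04, beside −0.92 with all libraries. Slc1a2, the main glutamate transporter of mature astrocytes, was at 10.1, 20.5 and 30.7 CPM with LPS and at 53.1, 39.4 and 53.1 CPM without. The groups did not overlap, and the log2 fold change was −1.25 ± 0.32 (adjusted p = 0.00585). Ntsr2, a neurotensin receptor, fell by 1.76 ± 0.47 (adjusted p = 0.00703). S100b, a calcium-binding protein, fell by 1.15 ± 0.37, and Aldoc, a glycolytic aldolase, by 0.92 ± 0.29. Aqp4, the water channel of astrocyte endfeet, was at −1.17 ± 0.51 (adjusted p = 0.0619). Gja1, the gap junction protein connexin 43, was at −0.30 ± 0.27, and Aldh1l1, an enzyme of folate metabolism, at −0.37 ± 0.24, neither past the test. Aldh1l1 shares 11.1% of its exon length with Gm15756 on the other strand. Of 18 other astrocyte genes 13 were lower and none higher, led by Fabp7 at −1.91 ± 0.39 and Acsbg1 at −1.56 ± 0.32. Leaving out the conflicting libraries, 8 were called lower.

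Gfap, the intermediate filament of reactive astrocytes, was at 10.01, 20.3 and 30.8 CPM in shielded LPS libraries and at 12.03, 7.37 and 8.71 CPM in shielded libraries without LPS. The groups overlapped, because LPS library 1, which was lowest for nearly all of the 30 genes, lay inside the range without LPS. The log2 fold change was 1.11 ± 0.39 (adjusted p = 0.0246). That call was lost without the 2 conflicting libraries (0.76, adjusted p = 0.32), with library totals as the scaling (0.80, adjusted p = 0.106), without shielded LPS library 3 (0.70, adjusted p = 0.111), and without shielded library 2 or 3 not given LPS (0.98 and 1.07, adjusted p = 0.0802 and 0.0637).

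Slc1a3, the glutamate transporter GLAST, was at 219.7, 224 and 217 CPM in shielded LPS libraries and at 130.1, 129 and 138 CPM in shielded libraries without LPS. These groups were well apart. Slc1a3 was the gene of the 30 with the least spread in the shielded LPS group, with a ratio of highest to lowest of 1.03 where the astrocyte median was 3.04. Its log2 fold change was 0.74 ± 0.12 (adjusted p = 0.000239) and 0.76 without the 2 conflicting libraries (adjusted p = 0.0115). With library totals as the scaling it was 0.39 (adjusted p = 0.0519). Slc1a3 is also reported in microglia, and the summed share of 10 microglia genes was lower in the same LPS libraries, at 2.28 to 2.33% against 3.33 to 3.68%. Itgam, which encodes CD11b itself, was the microglia gene with the smallest p among those higher, at 0.58 ± 0.15, and Gpr34 among those lower, at −3.47 ± 0.24. The part of microglia in the level of Slc1a3 was not tested.

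**Figure D3:**
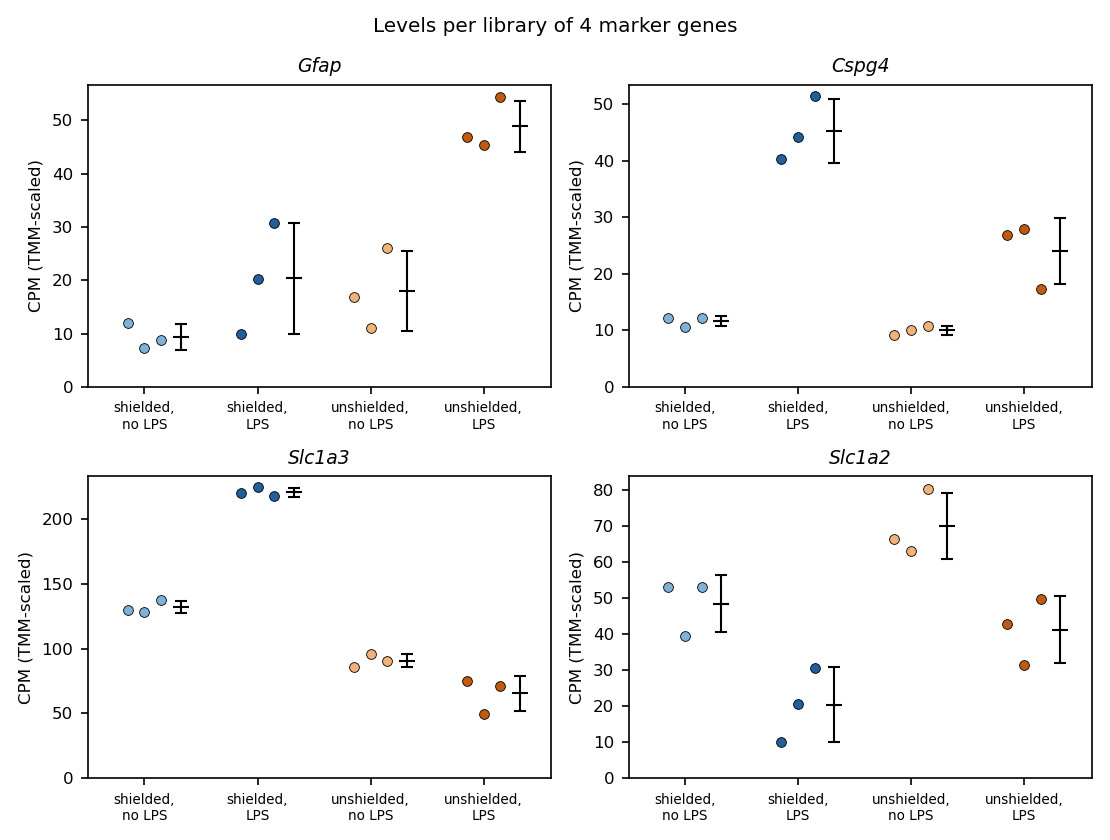
CPM per library (vertical axis, TMM-scaled) of Gfap, Cspg4, Slc1a3 and Slc1a2 by group (horizontal axis). Points are libraries 1 to 3 from left to right, and bars are the mean ± SD of 3. Every LPS library lay below every library without LPS for Slc1a2 and above it for Cspg4 under the same head treatment, though the Slc1a2 difference did not pass the test in unshielded mice, and Slc1a3 was highest in the shielded LPS libraries, near 220 CPM.

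The sequences before the start sites of Gfap, Slc1a3 and Cspg4 are printed because these 3 genes departed from the others in the LPS comparisons. They come from RefSeq on GRCm38.p6, matched by symbol, as did 24 of the 30 genes. Each run starts 250 bases before the annotated start and is written along the gene's own strand, and the Gfap run goes on to the end of a match that crosses the start. Capitals mark TTCNNNGAA, the letters of a binding site of STAT factors, which act downstream of cytokines. The motif reads the same on both strands and was found in 8.30% of 32851 promoters of 300 bases and in those of 5 of the 24 genes. The 24 genes have 28 promoters, so a count per gene and a share per promoter are not alike. Besides Gfap and Slc1a3, the genes with the motif were Aldoc, Mag and Ntsr2, which were called lower after LPS in shielded mice. A match is a description of the letters and no evidence of binding. Gfap lies at chr11:102897194-102897450 on the minus strand, Slc1a3 at chr15:8710808-8711057 on the minus strand, and Cspg4 at chr9:56864854-56865103 on the plus strand, and the Cspg4 run holds no match.
Gfap: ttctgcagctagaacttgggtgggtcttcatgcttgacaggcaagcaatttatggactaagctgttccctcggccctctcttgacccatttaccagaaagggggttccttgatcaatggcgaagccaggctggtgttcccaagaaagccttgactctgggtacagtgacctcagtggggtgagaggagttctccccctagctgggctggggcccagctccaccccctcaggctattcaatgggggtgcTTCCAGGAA
Slc1a3: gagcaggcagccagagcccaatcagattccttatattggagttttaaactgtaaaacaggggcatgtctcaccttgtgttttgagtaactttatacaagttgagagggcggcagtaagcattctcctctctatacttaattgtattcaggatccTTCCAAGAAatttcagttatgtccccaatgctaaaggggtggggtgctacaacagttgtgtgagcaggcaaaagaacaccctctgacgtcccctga
Cspg4: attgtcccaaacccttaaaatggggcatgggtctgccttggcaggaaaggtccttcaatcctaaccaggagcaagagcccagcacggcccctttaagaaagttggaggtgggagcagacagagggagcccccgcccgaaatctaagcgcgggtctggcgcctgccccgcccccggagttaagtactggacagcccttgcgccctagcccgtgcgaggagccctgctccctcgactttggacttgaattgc

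LPS in unshielded mice left fewer of the 30 genes past the test. Of the 30, 2 were higher and 2 lower, where 24.3% of all genes tested were called higher and 18.8% lower. The median log2 fold change of the 30 was −0.58, beside −0.06 over all genes tested, and 27 of the 30 had a value below 0. At an unadjusted p under 0.05, 7 of the 30 differed. When only the 6 unshielded libraries entered the fit, 18 of the 30 were called, 16 of them lower. The share of all genes called in that smaller fit is not given here, so this count has nothing to be set against. 

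Among unshielded neuron genes none was called. Snap25 was at 44.6, 29.7 and 53.6 CPM with LPS and at 70.8, 83.5 and 70.2 CPM without. These groups did not overlap, yet the log2 fold change of −0.81 ± 0.44 had an adjusted p of 0.157 in the fit over all libraries. Stmn2 and Slc17a7 had the lowest values, −1.004 ± 0.42 and −1.07 ± 0.50 (adjusted p = 0.0761 and 0.107). The median of the 20 other neuron genes was −0.77.

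Cnp was the oligodendrocyte gene that fell in unshielded mice. It was at 85.5, 51.4 and 69.5 CPM with LPS and at 124, 103 and 128 CPM without, which did not overlap, and its log2 fold change was −0.78 ± 0.20 (adjusted p = 0.00751). Mbp was at −0.33 ± 0.33 and Mobp at −0.30 ± 0.37 in unshielded mice, with adjusted p-values of 0.432 and 0.522. Mog was at −0.91 ± 0.52, with an adjusted p of 0.178. Cspg4 rose here as well: it was at 26.8, 27.9 and 17.3 CPM with LPS and at 9.12, 10.1 and 10.8 CPM without. Every LPS library was above every library without LPS, and the log2 fold change was 1.27 ± 0.16 (adjusted p = 6.09e-05). Of the 8 pericyte and smooth muscle genes none was higher and 1, Notch3, was lower, and Vcan was again higher, at 1.46 ± 0.25, while Gpr17 and Sox10 were lower.

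Gfap was at 46.9, 45.3 and 54.4 CPM in unshielded LPS libraries and at 16.9, 11.1 and 26.0 CPM in unshielded libraries without LPS. The groups did not overlap, and Gfap rose by 1.43 ± 0.38 on the log2 scale (adjusted p = 0.0105). Slc1a3 was at 75.1, 49.9 and 71.4 CPM with LPS and at 86.0, 95.7 and 90.6 CPM without, a fall of 0.47 ± 0.13 (adjusted p = 0.00892). The fall was 0.29 without unshielded LPS library 2, with an adjusted p of 0.0121, and 0.76 with library totals as the scaling. The other 7 astrocyte genes did not pass the test. Aldh1l1 was the one of them with a value above 0, 0.29 ± 0.24, and with library totals its value was 0.00.

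Gfap can be set beside a list of 20 genes of reactive astrocytes. Of these, 15 were higher and 2 lower after LPS in shielded mice, where 32.4% of all genes tested were called higher and 35.1% lower. In unshielded mice 17 were higher and 1 lower, beside 24.3% and 18.8% of all genes tested. Without the conflicting libraries 13 were higher and 2 lower in shielded mice. Srgn and Gbp2 had the smallest p among the higher genes in both, with Srgn at 3.35 ± 0.12 and 3.01 ± 0.12 and Gbp2, an interferon-induced GTPase, at 4.01 ± 0.32 and 3.41 ± 0.31. Nes, an intermediate filament that reactive astrocytes share with Gfap, was lower, at −1.96 ± 0.18 and −1.63 ± 0.18. Myeloid cells make several of the list's genes too, Srgn and Gbp2 among them, and the summed share of the list was 0.466 to 0.533% in the 6 LPS libraries and 0.1996 to 0.268% in the 6 without. That is several times the share of the 9 astrocyte genes in any library. How much of it came from astrocytes was not tested.

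To see which astrocyte genes departed from the level that neuron and oligodendrocyte genes had in the same library, the mean log2 CPM of those 17 genes was entered as a covariate in a second fit. The slope of each gene on that level is then set by how libraries differ within groups. Because the level itself was lower after LPS, the fit compares the groups at a level that they do not share: it ran from 2.60 to 4.61 in shielded LPS libraries and from 4.99 to 5.86 in shielded libraries without LPS, and from 4.21 to 5.004 and from 5.42 to 5.49 in unshielded ones. The adjusted values for LPS are therefore extrapolated along the fitted slope.

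With the level in the fit, 2 of the 9 astrocyte genes were called for LPS in shielded mice, both higher, where 20.0% of all genes tested were called higher and 14.3% lower. Gfap was at 2.12 ± 0.48 (adjusted p = 0.00804) and Slc1a3 at 0.93 ± 0.18 (adjusted p = 0.001). None of the 4 genes that had fallen was called any longer: Slc1a2 was at −0.06 ± 0.18, Ntsr2 at −0.21 ± 0.29, Aldoc at 0.16 ± 0.22 and S100b at 0.22 ± 0.21. Without the 2 conflicting libraries, a fit chosen after the data were seen, Slc1a3 was called at 0.93 ± 0.24 and Gfap, at 1.82 ± 0.58, was not (adjusted p = 0.0697).

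In unshielded mice 3 astrocyte genes were called with the level in the fit, where 22.3% of all genes tested were called higher and 18.3% lower. Gfap was at 1.90 ± 0.34 (adjusted p = 0.00223) and Slc1a3 at −0.40 ± 0.12 (adjusted p = 0.0182). Aldh1l1, which had not been called without the level, was at 0.64 ± 0.16 (adjusted p = 0.00402). Its CPM was 12.8, 10.02 and 12.6 with LPS and 8.67, 8.43 and 11.8 without. Those values overlap, but relative to the mean of the 17 genes its log2 level was −1.34 to −0.88 with LPS and −2.36 to −1.92 without, which do not. The same held in unshielded mice for Gfap, Slc1a3, Aldoc, Gja1 and S100b and not for Aqp4, Slc1a2 or Ntsr2. The mean of the 17 genes was itself lower with LPS, which raises every relative level. For Slc1a3 the relative level was higher with LPS (1.15 to 1.43 against 1.01 to 1.14), although its CPM was lower. The share of all genes whose relative levels separate is not given here. In shielded mice this relative level of Aldh1l1 was −1.64 to −0.71 with LPS and −2.78 to −2.22 without, and its value with the level in the fit was 0.46 ± 0.23 (adjusted p = 0.146). The relative level of Gfap was 0.33 to 1.29 over all 6 LPS libraries and −2.73 to −0.79 over all 6 without LPS.

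**Figure D4:**
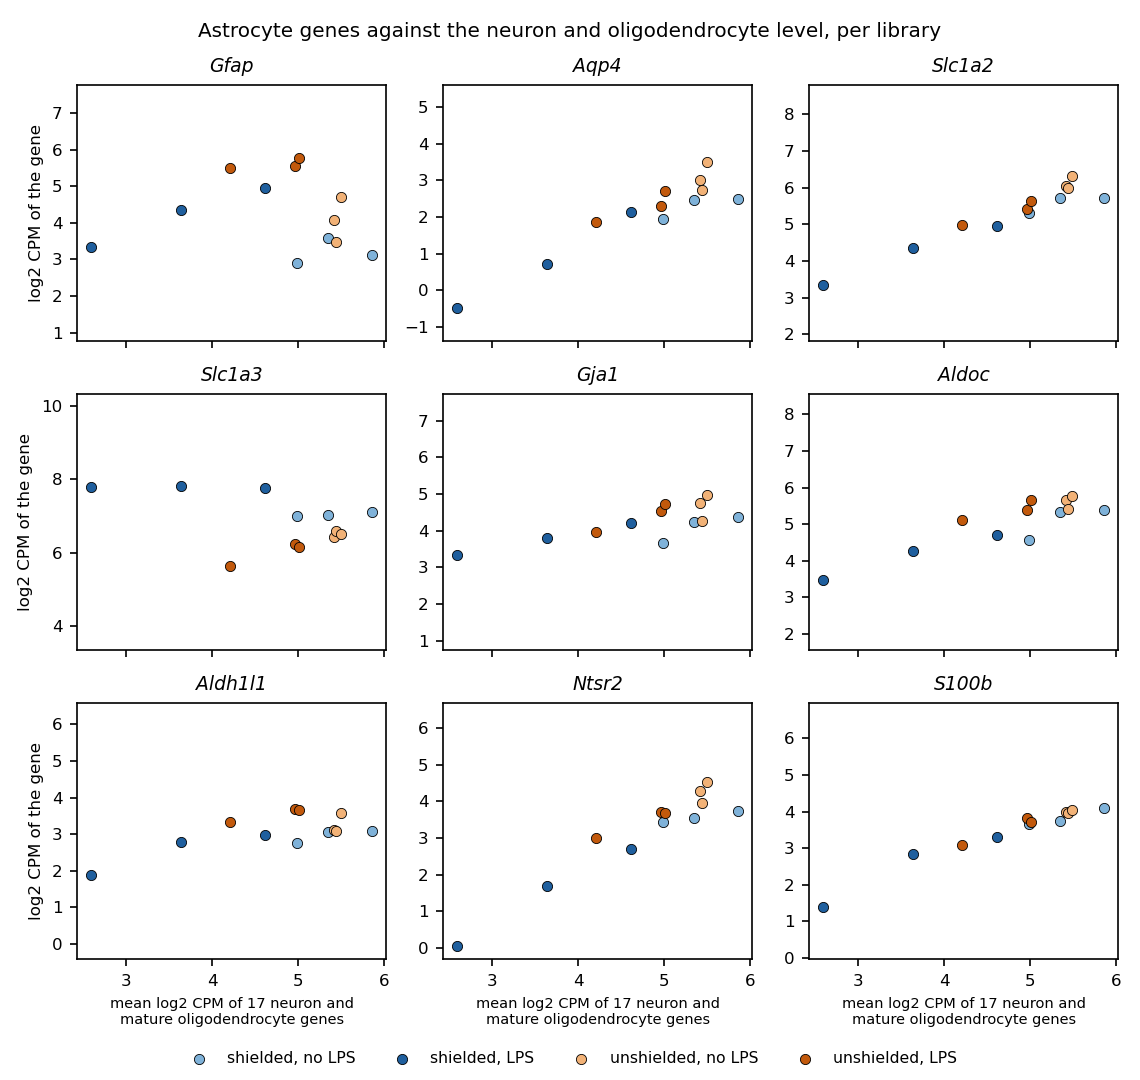
Log2 CPM of each astrocyte gene (vertical axis) against the mean log2 CPM of 17 neuron and mature oligodendrocyte genes (horizontal axis), 1 point per library, coloured by group. Slc1a2, Aldoc, Ntsr2 and S100b rise along the horizontal axis, unshielded LPS libraries lie highest for Gfap, and Slc1a3 does not follow the axis.

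The same was done for the 11 oligodendrocyte and precursor genes with the mean of the 10 neuron genes as the covariate. For LPS in shielded mice, 3 of the 11 were called in place of 11, where 21.1% of all genes tested were called higher and 15.9% lower: Cspg4 at 2.09 ± 0.24, Cnp at −0.76 ± 0.24 and Olig2 at −0.66 ± 0.24. In unshielded mice Cspg4, at 1.33 ± 0.19, and Cnp, at −0.57 ± 0.16, were called, where 22.6% of all genes tested were called higher and 18.7% lower. Without the conflicting libraries, a fit chosen after the data were seen, only Cspg4 of the 11 was called in shielded mice, at 1.99 ± 0.34, and Cnp was at −0.76 ± 0.30 (adjusted p = 0.106). With all libraries, Mbp (−0.26 ± 0.32 in shielded mice) and Mobp (0.07 ± 0.32) were not called once the neuron level was included.

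Without LPS, unshielded and shielded libraries differed in 1 of the 30 genes, where 3.98% of all genes tested were called higher and 6.85% lower in unshielded mice. That gene was Slc1a3, lower in unshielded mice by 0.54 ± 0.13 on the log2 scale (adjusted p = 0.0133), from the values given above, which do not overlap. The call was lost without the 2 conflicting libraries (−0.53, adjusted p = 0.232), with library totals as the scaling (−0.51, adjusted p = 0.0695), and without shielded library 3 or unshielded library 1 or 3 of those not given LPS (adjusted p = 0.052, 0.0729 and 0.0612). By an unadjusted p under 0.05, 2 of the 30 differed. Neuron genes lay between −0.15 and 0.53 and all 7 mature oligodendrocyte genes at or just below 0, down to −0.39 for Cnp.

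Astrocyte genes other than Slc1a3 had values above 0 in unshielded mice without LPS, with none past the test. Their values ran from 0.14 for S100b to 0.94 ± 0.38 for Gfap (adjusted p = 0.17), and the median of the 9 was 0.53. In Aqp4, Slc1a2, Aldoc, Aldh1l1 and Ntsr2, every unshielded library was above every shielded library, as in 14.2% of all genes tested. Slc1a2, for example, was at 66.3, 63.2 and 80.4 CPM in unshielded libraries and at 53.1, 39.4 and 53.1 CPM in shielded ones. In Aldh1l1 and Aldoc the groups were barely apart. The lowest unshielded and highest shielded values were 8.43 and 8.41 CPM for Aldh1l1, and 42.5 and 42.1 CPM for Aldoc. With the neuron and oligodendrocyte level in the fit, 5 astrocyte genes were higher and 1 lower, where 7.39% of all genes tested were called higher and 10.8% lower. The higher genes were Aqp4 at 0.77 ± 0.20, Ntsr2 at 0.64 ± 0.16, Gja1 at 0.58 ± 0.16, Slc1a2 at 0.50 ± 0.11 and Aldoc at 0.47 ± 0.13, and the lower one was Slc1a3. Without the 2 conflicting libraries, none of the 9 was called in that fit: the values for these 5 genes ranged from 0.21 for Aldoc to 0.61 for Ntsr2. Of 18 other astrocyte genes none was higher and 1, Glul, the glutamine synthetase, which microglia also make, was lower at −0.84 ± 0.09.

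**Figure D5:**
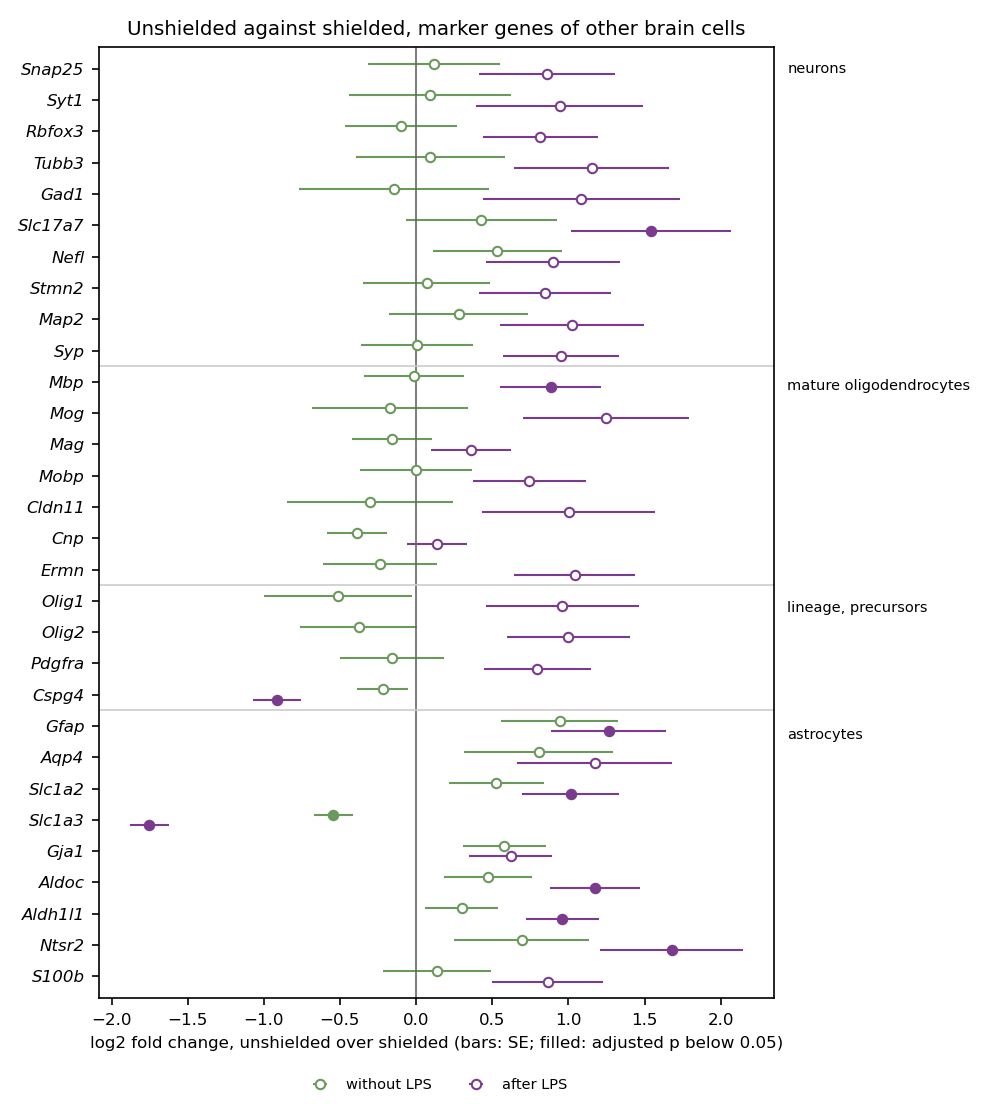
Log2 fold change of unshielded over shielded (horizontal axis) for each of the 30 genes (vertical axis), without LPS (green) and after LPS (purple), with SE bars. Filled points passed an adjusted p of 0.05. After LPS, 28 of the 30 genes lie to the right of 0, and Slc1a3 and Cspg4 lie to the left.

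After LPS, 7 of the 30 genes were higher and 2 lower in unshielded than in shielded mice, where 19.1% of all genes tested were called higher and 25.6% lower. The median of the 30 was 0.96, beside 0.07 over all genes tested. Slc1a2, at 42.8, 31.4 and 49.6 CPM in unshielded and 10.1, 20.5 and 30.7 CPM in shielded LPS libraries, was higher by 1.014 ± 0.32 (adjusted p = 0.0254). The other higher astrocyte genes were Ntsr2 (1.68 ± 0.47), Gfap (1.26 ± 0.38), Aldoc (1.17 ± 0.29) and Aldh1l1 (0.96 ± 0.24). Slc17a7, at 1.54 ± 0.53, was the neuron gene called, and Mbp, at 0.88 ± 0.33 with an adjusted p of 0.049, the oligodendrocyte gene. The call of Mbp was lost without the 2 conflicting libraries (adjusted p = 0.0744), with library totals (adjusted p = 0.063) and without any 1 of 4 of the 6 LPS libraries (adjusted p from 0.091 to 0.168). The count rested on shielded LPS library 3, which had the highest level of most genes in its group: without it, 28 of the 30 were called, 26 higher and 2 lower. How many of all genes were called in that fit is not given here, and the shares above belong to the fit of all libraries. Without shielded LPS library 2 or unshielded LPS library 3, 5 were called. This comparison shares its shielded LPS libraries with the LPS comparison in shielded mice.

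Slc1a3 and Cspg4 were lower in unshielded than in shielded mice after LPS. Slc1a3 lay between 49.9 and 75.1 CPM in unshielded and between 217 and 224 CPM in shielded LPS libraries, a log2 fold change of −1.75 ± 0.13 (adjusted p = 3.12e-06). Cspg4 was lower by 0.91 ± 0.16 (adjusted p = 0.000594), and its groups did not overlap. Both lower calls were made in each of the 6 fits that left out 1 LPS library. Of the 10 microglia genes, 8 were lower in unshielded mice after LPS and 9 without it, and none was higher in either. Leaving out the conflicting libraries keeps 1 shielded library without LPS. The median log2 fold change of the 10 in mice not given LPS was then −0.92, beside −0.93 with all libraries. Cx3cr1, the fractalkine receptor, was at −1.78 ± 0.18 after LPS, and Olfml3 was at −1.26 ± 0.13 without it. The part of this in the level of Slc1a3 was not tested. Of 18 other astrocyte genes 16 were higher and none lower, led by Acsbg1 at 1.63 ± 0.32 and Slc6a11 at 1.53 ± 0.40.

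With the neuron and oligodendrocyte level in the fit, 2 astrocyte genes were higher after LPS in unshielded mice, where 12.6% of all genes tested were called higher and 18.3% lower. These were Ntsr2 at 0.78 ± 0.23 and Aldoc at 0.54 ± 0.17, while Slc1a3 was lower at −1.88 ± 0.14. Gfap, at 0.69 ± 0.37, was no longer called (adjusted p = 0.211), nor was Slc1a2, at 0.31 ± 0.14 (adjusted p = 0.117). 

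Whether the response to LPS differed between unshielded and shielded mice was tested for each gene as the difference of the 2 LPS effects. It was called for 1 of the 30 genes, where 13.3% of all genes tested were called in either direction. That gene was Slc1a3, with a difference of −1.21 ± 0.18 (adjusted p = 0.0022), which was −1.24 without the 2 conflicting libraries (adjusted p = 0.0489). Cspg4 was at −0.69 ± 0.23 (adjusted p = 0.0657) and Gfap at 0.32 ± 0.53 (adjusted p = 0.703), so a difference in their LPS responses was not shown. The other 27 genes had values between 0.04 for Gja1 and 1.48 for Olig1, with adjusted p-values from 0.127 upward. At an unadjusted p under 0.05, 4 of the 30 differed. Without shielded LPS library 3, 13 of the 30 were called, 12 of them with a smaller fall after LPS in unshielded mice. Olig2 was among the 12, at 2.03 (adjusted p = 0.00421). For that fit, too, the share of all genes called is not given here. With the neuron and oligodendrocyte level in the fit, Slc1a3 was again the astrocyte gene called, at −1.33 ± 0.18 (adjusted p = 0.000826).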

How the data were processed

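RNA from CD11b bead-sorted cells was amplified linearly and sequenced, per the labels' protocols. FastQC, STAR, HTSeq and the build mm9 are named in the submitters' processing notes, while settings, annotation and strandedness were not given in the sources used here. Counts deposited by the authors were whole numbers per gene for all 12 libraries. Groups follow the library titles.

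From these counts, genes were kept by edgeR 4.0.16 (filterByExpr, minimum count 10, minimum total 15; R 4.3.3), scaled by TMM, and tested in one quasi-likelihood fit of all 4 groups, with Benjamini-Hochberg adjustment over 18875 genes and a threshold of 0.05. SE is the log2 fold change over the square root of F, and 2 counts were added as the prior of log2 CPM. Summed shares are percentages of unscaled totals. Exon lengths and overlaps come from GENCODE M21. The script was tested on simulated data. Alternatives were DESeq2 1.42.0, library totals, no filter, a replicate block, only the groups compared, each library left out, and both treatments of the 2 conflicting libraries. Intervals cover the spread between libraries. Of the identifiers, 254 had no symbol and 12 shared one. Replicates differed by more than sampling noise (lowest chi-square per degree of freedom 12.48), so none was merged.

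Shielded libraries of the same number with and without LPS had correlations of deviations of 0.112, 0.194 and 0.547. Library 2 without LPS correlated more with LPS library 1 (0.399), so the numbers did not clearly pair the libraries. The replicate block for LPS in shielded mice called 28 of the 30 genes against 26, and the share of all genes called in that fit is not given here. The 30 genes and all lists were chosen with earlier results of these data known. All 30 are named, and of each other list at most 2 called genes per direction and comparison, those with the smallest p. Some genes that this rule names are not reported here.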

Additional observations from a re-analysis of the deposited data

Results flagged for a closer look

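Slc1a3 was the gene of the 30 whose response to LPS differed by head shield in the test of the difference itself, by −1.21 on the log2 scale (unshielded minus shielded), with an adjusted p of 0.0022 by edgeR's quasi-likelihood test. It was higher with LPS in 3 of 3 shielded libraries and lower in 3 of 3 unshielded libraries, each against every library without LPS of its own head treatment. Relative to the mean of the 17 neuron and mature oligodendrocyte genes, its log2 level reached 5.18, 4.18 and 3.15 in shielded mice given LPS and lay between 1.01 and 2.02 in the other 9 libraries. The CPM of Slc1a3 in the shielded LPS libraries was nearly the same (219.7, 224 and 217), so the differences among those relative levels are those of the 17-gene mean (2.60, 3.64 and 4.61). No library of the 30 genes is given as an outlier, since groups of 3 were not examined for outliers.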

How the results depend on the processing

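When the treatment field in place of the title set the group of the 2 conflicting libraries, the members called were 0 of 30 for LPS in shielded mice, 0 for the shield without LPS, 1 after LPS and 0 for the difference. In that fit the difference for Slc1a3 was −1.03 (adjusted p = 1). Without these libraries the first 2 counts were 12 and 0. Without the filter on low counts, 17 were called for LPS in shielded mice and 4 for the shield after LPS. DESeq2 called 7 for unshielded LPS, 2 and 16 for the shield without and after LPS, and 3 for the difference. With library totals 7 were called for LPS in unshielded mice, while the shield comparison without LPS gave 0, where 2 had an unadjusted p under 0.05 in the TMM fit. Fits of only the groups compared called 18 genes for unshielded LPS, then 4 (shield, no LPS) and 5 (shield, after LPS). Outside the LPS comparison in shielded mice, numbers did not clearly pair the libraries either (correlations from −0.264 to 0.478). The replicate block called 9 for LPS in unshielded mice, 17 for the shield after LPS and 3 for the difference. The share of all genes called is not given here for the alternative fits of this paragraph, apart from LPS in shielded mice without the conflicting libraries. Their counts of members therefore have nothing to be set against.

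Leaving out 1 library gave 18 to 27 for LPS in shielded mice, 4 to 5 under no shield, 0 to 1 for the shield without LPS, 5 to 28 after LPS and 1 to 13 for the difference. Shares of all genes called in these fits are not given here. The difference was called for 2 genes without unshielded LPS library 2. With the neuron and oligodendrocyte level in the fit, astrocyte calls went from 6 to 2 for LPS in shielded mice, from 1 to 6 and from 6 to 3 for the shield without and after LPS, and, without the conflicting libraries as well (an alternative chosen after seeing the data), to 1 and 0 for the first 2. With the neuron level, oligodendrocyte and precursor calls went from 11 to 3, 0 to 1 and 2 to 1, and to 1 for LPS in shielded mice without the conflicting libraries as well. Values for LPS in shielded mice changed sign from a called fall in Aldoc (0.16) and S100b (0.22), in Mobp with the neuron level (0.067), and, without the conflicting libraries, in Ntsr2 (0.0097), S100b (0.36), Mbp (0.18), Mobp (0.56) and Cldn11 (0.31). Of 2200 gene results under alternatives, 1945 kept their side of the threshold and their direction where called, 146 lost and 101 gained a call, and 8 reversed. The cause was not tested. With 3 libraries a group and as few as 22 counts, small changes in Aqp4, Mog and Olig2 could not be shown.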

Other observations

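Endothelial genes, which mark vessel cells that CD11b beads should not hold, did not move as one list after LPS. Of 10, 2 were higher and 6 lower in shielded mice (2 and 5 without the conflicting libraries), where 32.4% of all genes tested were called higher and 35.1% lower. In unshielded mice 2 were higher and 7 lower, beside 24.3% and 18.8% of all genes tested. Slc2a1, the glucose transporter of the blood-brain barrier that other cells also make, was higher at 1.95 ± 0.17 and 1.07 ± 0.16 on the log2 scale. Slco1a4, an organic anion transporter of brain vessels, was lower at −4.58 ± 0.37 and −2.52 ± 0.32, and Abcb1a, an efflux pump, at −2.56 ± 0.25 and −1.98 ± 0.24. Of 9 genes of ependyma and choroid plexus, 3 were lower in shielded mice, a share near that of all genes (1 without the conflicting libraries), and 1 in unshielded mice, with Foxj1, a factor of ciliated cells, at −2.003 ± 0.38 and −1.14 ± 0.34. These values are by edgeR's quasi-likelihood test in the same fit, and the lists were chosen with earlier results known.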
